A study of Mus musculus with 6 samples.

Results

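Imprinted genes, which are transcribed from only the maternal or only the paternal chromosome, were examined in the soft palate of mouse embryos at E14.0. The list holds 37 known imprinted genes in 8 named domains and a group of other loci, and 36 of them were among the 21938 genes of the expression table. Phlda2 was not analysed here. The list was drawn up because Kcnq1ot1 was strongly higher in the mutants, so the values of Kcnq1ot1 are given below as a description with no test. The other members entered as known imprinted genes, but the list was drawn up with earlier results of these data known. RNA was sequenced from 3 Osr2-Cre;b-cateninfl/fl mutants (replicates 5, 6 and 7) and 3 controls (replicates 1, 2 and 3). In the mutants a Cre recombinase driven by Osr2, a gene of palatal mesenchyme, deletes floxed β-catenin. The controls are called b-cateninfl/fl in the protocol and wild type in the genotype field, and the floxed description is used here, so both groups carry the floxed allele and the mutants alone are described as carrying the Cre. The labels do not say whether a library came from 1 embryo or a pool, so p-values reflect spread among these libraries alone.

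Imprinted genes lie in clusters, each under an imprinting control region whose DNA methylation differs between the parental chromosomes. In several clusters a long non-coding RNA made from one chromosome keeps neighbouring genes silent on that chromosome. Kcnq1ot1, an unspliced paternal antisense RNA, does so in the Kcnq1 domain, and Airn, also paternal and antisense, silences the paternal copy of Igf2r. Many other imprinted genes act on growth before birth, among them Igf2, Cdkn1c, Grb10 and Dlk1.

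Across the series, values were CPM, each gene's reads scaled to the same library total, and the libraries held an estimated 10018205 to 15088697 counted reads. A gene with 0 reads is limited by counting error alone to below 3 reads, or 0.199 to 0.299 CPM. The targeted Ctnnb1, encoding β-catenin, measured 585, 633 and 582 CPM in mutant replicates 5, 6 and 7, against 698, 784 and 671 CPM in control replicates 1, 2 and 3 (log2 change -0.26 ± 0.10 SE, limma adjusted p = 0.183). The groups did not overlap for Ctnnb1. Osr2 averaged 16.1 ± 3.22 CPM in mutants and 46.9 ± 11.2 CPM in controls (SD, n = 3 each; limma adjusted p = 0.0285), and whether the Cre allele itself lowers Osr2 was not tested. Of the 8 palatal mesenchyme markers fixed for the label of the tissue, all were detected, with a summed level of 705 to 886 CPM in mutants and 883 to 1082 CPM in controls. Xist was above 100 CPM in 1 mutant (replicate 7) and 1 control (replicate 3), so each group held 1 library with high Xist, which is transcribed from the inactive X chromosome.

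The start regions of 3 genes are shown first, because Kcnq1ot1 and Airn start within or beside the control regions of their domains and Dlk1 was the 1 tested member that passed the threshold. Each is the RefSeq window (GRCm38.p6) from 250 bases before to 50 bases after the start, read 5′ to 3′ along the gene's strand. Capitals mark CG dinucleotides, the sites of DNA methylation. They lie at chr7:143296498-143296797 on the minus strand (Kcnq1ot1), chr17:12741061-12741360 on the plus strand (Airn) and chr12:109452573-109452872 on the plus strand (Dlk1).
Kcnq1ot1: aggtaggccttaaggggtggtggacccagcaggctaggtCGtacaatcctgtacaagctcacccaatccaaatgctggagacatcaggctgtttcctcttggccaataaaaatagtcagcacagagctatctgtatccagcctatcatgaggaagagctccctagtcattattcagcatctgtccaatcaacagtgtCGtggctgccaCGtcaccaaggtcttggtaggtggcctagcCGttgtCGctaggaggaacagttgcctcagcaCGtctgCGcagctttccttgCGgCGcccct
Airn: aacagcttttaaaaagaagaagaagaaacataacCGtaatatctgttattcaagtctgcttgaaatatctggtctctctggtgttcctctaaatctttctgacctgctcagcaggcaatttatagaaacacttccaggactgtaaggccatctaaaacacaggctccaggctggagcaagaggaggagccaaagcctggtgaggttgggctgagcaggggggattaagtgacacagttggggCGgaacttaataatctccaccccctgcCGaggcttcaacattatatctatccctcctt
Dlk1: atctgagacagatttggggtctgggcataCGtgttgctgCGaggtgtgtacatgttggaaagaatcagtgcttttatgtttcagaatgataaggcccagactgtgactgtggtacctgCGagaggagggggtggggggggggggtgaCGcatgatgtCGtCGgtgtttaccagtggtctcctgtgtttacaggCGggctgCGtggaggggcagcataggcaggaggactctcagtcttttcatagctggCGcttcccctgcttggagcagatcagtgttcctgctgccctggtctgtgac
The windows of Kcnq1ot1 and Dlk1 each held 9 CG, a number reached by 45.8% of all 32851 RefSeq promoter windows, and that of Airn held 3, reached by 76.7%. The motif CCAAT, searched on both strands, occurred 3 times in the Kcnq1ot1 window, each time as CCAAT on the gene's strand and none as ATTGG. At least 1 match was found in 37.4% of all windows and at least 3 in 3.37%. Neither the Airn nor the Dlk1 window held one. The letters TGCCGC, the core of the motif read by the imprint keeper ZFP57 when methylated, were in 13 of the 44 windows of the 29 listed genes with a RefSeq window and in 11.6% of all windows, both strands searched. Of those 13, 2 are Mest windows whose starts lie 3 bases apart. Each TGCCGC holds a CG, and the windows of listed genes held a median of 13.5 CG, against 7 over all windows. No TGCCGC was in the Kcnq1ot1, Airn or Dlk1 window. The TCF/LEF letters CTTTGAT, searched on both strands, were in 0 of the 44 windows and in 3.73% of all windows.

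In the Kcnq1 domain on chromosome 7, Kcnq1ot1 was higher in mutants, and no neighbour passed the test. Kcnq1ot1 (143203458 to 143296549, minus strand, GRCm38, annotated as antisense to Kcnq1) measured 1522, 1244 and 1422 CPM in mutant replicates 5, 6 and 7, against 691, 800.3 and 694 CPM in control replicates 1, 2 and 3. All mutants lay above all controls. The mean was 1396 ± 141 CPM in mutants and 728 ± 62.3 CPM in controls (SD, n = 3 each), a ratio of 1.92 and a log2 change of 0.94. GENCODE gives it as 1 unspliced exon of 93092 bases, so its level per length was modest, at 15.0 CPM per kb in mutants and 7.83 CPM per kb in controls. By that scale it ranked 19 of 36 listed genes in mutants and 27 of 36 in controls. It shares 581 exonic bases with genes of the opposite strand, Kcnq1 among them, and the sources used here do not state whether strand was used in counting.

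Cdkn1c, the cyclin-dependent kinase inhibitor p57 and a maternally expressed brake on growth, is silenced on the paternal chromosome by Kcnq1ot1. It measured 810.1, 849 and 687 CPM in mutant replicates 5, 6 and 7, against 1230.0, 724 and 1186 CPM in control replicates 1, 2 and 3. Control replicate 2 lay among the mutants, so the groups overlapped (log2 change -0.39 ± 0.20 SE, limma adjusted p = 0.297). Without control replicate 2 the change was -0.63 and passed the threshold (limma adjusted p = 0.0490). That omission also raised the calls over all genes from 105 to 452. With any other library left out, the Cdkn1c change was -0.25 to -0.45 and did not pass (limma adjusted p = 0.35 to 0.595). Kcnq1, the potassium channel gene that Kcnq1ot1 runs through, was near the floor, at 0.461 to 0.741 CPM in mutants and 0.315 to 0.888 CPM in controls. Slc22a18, a membrane transporter, was also low, at 0.532 to 1.66 CPM in mutants and 0.240 to 0.799 CPM in controls (limma adjusted p = 0.329). No change could be called for either at this depth.

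A further 10 genes of the same domain were measured from a list of its other members, and 0 of them passed in limma in either direction, against 0.196% of all genes called higher and 0.283% called lower. Before adjustment, limma gave 0 higher and 2 lower at p below 0.05, against 13.4% and 8.07% over the whole table. Their median log2 change was -0.21, beside 0.04 for all genes. Dhcr7, which makes cholesterol, starts at 526.6 kb from the Kcnq1ot1 start and averaged 12.6 ± 2.22 CPM in mutants and 17.2 ± 1.88 CPM in controls (SD, n = 3 each; limma adjusted p = 0.172). Cd81, a tetraspanin at -243.8 kb, on the other side, averaged 76.7 ± 5.29 CPM in mutants and 102.4 ± 21.3 CPM in controls (limma adjusted p = 0.184). Trpm5, a cation channel, averaged 15.9 and 19.7 CPM, and Tnfrsf22, a decoy receptor, 6.27 and 7.79 CPM, in mutants and controls in that order (limma adjusted p = 0.290 and 0.409).

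**Figure D1:**
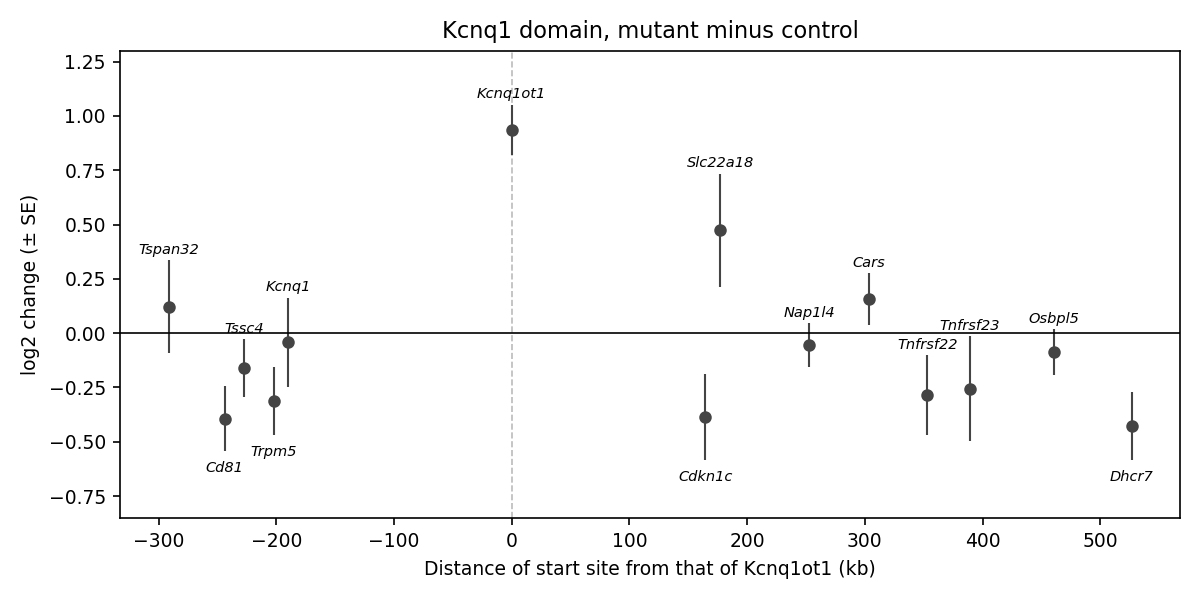
Log2 change, mutant minus control, on the log2(CPM + 1) scale (points, with SE bars) of 14 genes of the Kcnq1 domain, by the distance in kb of each start site from that of Kcnq1ot1. Kcnq1ot1 stands at 0.94, and the other genes lie between -0.43 (Dhcr7) and 0.47 (Slc22a18).

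In the Igf2r domain on chromosome 17, the antisense RNA again lay higher in mutants, without passing the threshold. Airn (12741311 to 12860136, plus strand) measured 57.9, 49.2 and 55.9 CPM in mutant replicates 5, 6 and 7, against 27.2, 36.8 and 38.0 CPM in control replicates 1, 2 and 3. All mutants lay above all controls (ratio 1.60, log2 change 0.67 ± 0.14 SE, limma adjusted p = 0.0685). Igf2r, the receptor that clears IGF2 from the cell surface, measured 494, 484 and 381 CPM in mutants and 669, 479 and 490 CPM in controls. Its groups overlapped (log2 change -0.26 ± 0.15 SE, limma adjusted p = 0.368). The annotated exons of Airn and Igf2r share no base, but Airn starts inside an Igf2r intron. Without strand, Airn reads from within the Igf2r span cannot be told from unspliced Igf2r RNA. That span ends at 12769664, and Airn runs on beyond it to 12860136.

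**Figure D2:**
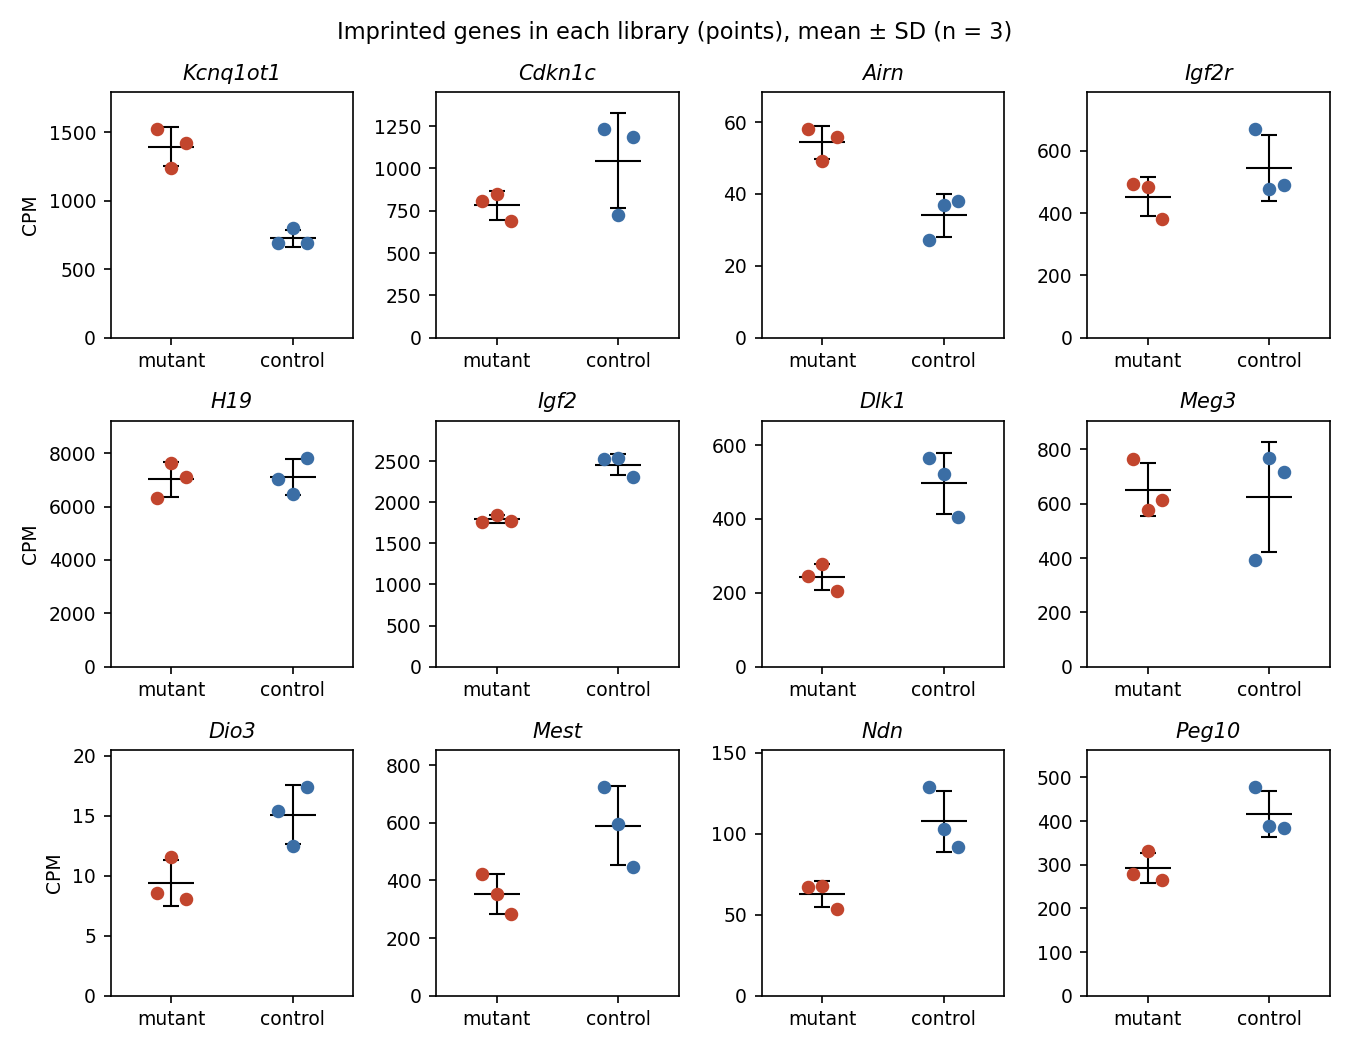
CPM of 12 imprinted genes in each library (points) with the group mean and SD (n = 3), mutants left and controls right, each axis starting at 0. All mutants lie above all controls for Kcnq1ot1 and Airn and below all controls for Igf2, Dlk1, Dio3, Mest, Ndn and Peg10, while Cdkn1c, Igf2r, H19 and Meg3 overlap.

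Genes annotated as antisense, as Kcnq1ot1 and Airn are, had mostly positive log2 changes across the table. So had genes with a large total exonic length and nuclear long non-coding RNAs. Among 949 genes annotated as antisense, 81.5% had a positive log2 change (median 0.28), against 56.1% of all 21371 matched genes (median 0.04). Among genes averaging at least 10 CPM, 74.2% of 31 antisense genes, Kcnq1ot1 and Airn among them, were positive, against 46.7% of all 10829. Genes with at least 10 kb of exon in total, coding or not, were positive in 71.0% of 1530 cases. That class holds Kcnq1ot1 but not Airn, which has 3597 exonic bases. Of 19 measured nuclear long non-coding RNAs, 3 rose and 0 fell in limma, against 0.196% and 0.283% of all genes (median log2 change 0.49). Before adjustment, 12 were higher and 0 lower at p below 0.05, against 13.4% and 8.07%. Those 3 were Ppnr, Mir99ahg and Egfros, at means of 40.9, 102.3 and 16.1 CPM in mutants and 18.6, 50.7 and 7.56 CPM in controls. The list was drawn up with earlier results of these data known. Malat1, an abundant nuclear RNA, averaged 17020.0 ± 1593 CPM in mutants and 9621 ± 814 CPM in controls (SD, n = 3 each; limma adjusted p = 0.0854). The summed level of the list was 16110 to 20670 CPM in mutants and 9613 to 11360 CPM in controls, and most of it was Malat1. Without Malat1 and Xist the other 17 summed to 873 to 1204 CPM in mutants and 691 to 791 CPM in controls. The part of these shifts in the levels of Kcnq1ot1 and Airn was not tested.

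In the H19-Igf2 domain on chromosome 7, H19 did not separate the groups and Igf2 lay lower in mutants. H19, a maternal non-coding RNA, had the highest level per length of the listed genes in both groups, at 2854 CPM per kb in mutants and 2887 CPM per kb in controls. It measured 6330, 7648 and 7090 CPM in mutant replicates 5, 6 and 7, against 7042, 6461 and 7802 CPM in control replicates 1, 2 and 3. The 95% interval of its log2 change ran from -0.40 to 0.37 (limma adjusted p = 0.967). Igf2, the paternally expressed fetal growth factor, measured 1753, 1845 and 1772 CPM in mutants, against 2522, 2531 and 2305 CPM in controls. All mutants lay below all controls, with a narrow spread in each group (ratio 0.730, log2 change -0.45 ± 0.11 SE, limma adjusted p = 0.0854). Igf2 has 5723 exonic bases, and its exonic overlaps with other annotated genes, added gene by gene, came to 3694 bases. A base shared with several genes counts once for each. Reads could be split between these genes. Whether the change of H19 differs from that of Igf2 was not tested.

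Igf2 acts through the IGF receptors, and 17 genes of that axis were measured. None passed in limma (before adjustment, 0 higher and 4 lower at p below 0.05, against 13.4% and 8.07% of all genes), and the median log2 change was -0.09. Igfbp2, an IGF-binding protein, averaged 83.6 ± 8.86 CPM in mutants and 118.9 ± 7.50 CPM in controls (limma adjusted p = 0.0671), and Igfbp3, the main carrier in serum, 129.8 ± 13.8 and 249 ± 78.5 CPM in the same order (limma adjusted p = 0.0763). Irs1, an adaptor of the receptor, averaged 140.9 CPM in mutants and 178.7 CPM in controls, and Irs2 47.5 and 59.2 CPM.

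In the Dlk1-Meg3 domain on chromosome 12, Dlk1 fell, and the maternal non-coding RNAs of the same domain did not pass. Dlk1 (109452823 to 109463336, plus strand) encodes a membrane protein with EGF repeats that holds progenitor cells of fat and other mesenchyme from differentiating. It measured 246, 277 and 205 CPM in mutant replicates 5, 6 and 7, against 564, 521 and 404 CPM in control replicates 1, 2 and 3. The highest mutant was well below the lowest control. The ratio was 0.489 and the log2 change -1.03 ± 0.15 (SE), with a limma adjusted p of 0.0341 over all genes. Dlk1 was the only listed gene called lower, against 0.283% of all genes. The call was lost without control replicate 1 or 3 or mutant replicate 5, 6 or 7, with log2 changes of -0.91 to -1.17 and limma adjusted p of up to 0.147, and was kept without control replicate 2. It was also lost with no trend in the prior variance (0.0764) and with sex, inferred from Xist above 100 CPM, as a covariate (0.0519).

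Dio3, the enzyme that inactivates thyroid hormone, lies at the far end of the domain and is also paternally expressed. It measured 8.55, 11.6 and 8.09 CPM in mutant replicates 5, 6 and 7, against 15.4, 12.5 and 17.4 CPM in control replicates 1, 2 and 3, with no overlap (log2 change -0.63 ± 0.18 SE, limma adjusted p = 0.111). Rtl1, a paternal retrotransposon-derived gene of placenta and fetal muscle, measured 112.2, 93.7 and 98.6 CPM in mutants and 85.6, 151 and 130.2 CPM in controls (limma adjusted p = 0.513). Its lowest library was control replicate 1, and the groups overlapped.

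The maternal RNAs of the domain are made on one strand in the order Meg3, Rian and Mirg. Meg3 measured 763, 577 and 614 CPM in mutant replicates 5, 6 and 7, against 392, 766 and 715 CPM in control replicates 1, 2 and 3. Control replicate 1 had the lowest value of all 6 libraries, and the groups overlapped (limma adjusted p = 0.823). Rian, a host of small nucleolar RNAs, measured 1161, 1120.0 and 1034 CPM in mutants and 1338, 1124 and 1245 CPM in controls. Its 3 mutants span 1034 to 1161 CPM, across the lowest control (limma adjusted p = 0.433). Mirg, a host of microRNAs, measured 64.3, 62.3 and 62.1 CPM in mutants, all below the 69.3, 103.9 and 77.9 CPM of controls (log2 change -0.39 ± 0.14 SE, limma adjusted p = 0.169). The ratio of Rian to Meg3 was 3.42 in control replicate 1 and 1.47 to 1.94 in the other libraries, so that library differs from the rest within the domain. The ratio of Meg3 to Dlk1 was 3.10, 2.09 and 2.99 in mutants and 0.695, 1.47 and 1.77 in controls.

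In the Mest, Peg10 and Snrpn domains the best separated members were paternally expressed and lay lower in mutants, but none passed. Mest, a hydrolase-fold protein of embryonic mesoderm, measured 422, 352 and 284 CPM in mutant replicates 5, 6 and 7, against 723, 597 and 448 CPM in control replicates 1, 2 and 3. The groups did not overlap (log2 change -0.73 ± 0.19 SE, limma adjusted p = 0.0977). Copg2, a subunit of the COPI vesicle coat that meets Mest tail to tail and shares 912 exonic bases with it, measured 70.8, 62.7 and 67.4 CPM in mutants and 66.9, 63.0 and 57.1 CPM in controls, which overlapped (limma adjusted p = 0.574). Ndn, necdin, a MAGE protein that restrains the cell cycle and promotes differentiation, measured 67.1, 67.5 and 53.6 CPM in mutants, against 128.5, 102.9 and 91.7 CPM in controls. The groups did not overlap (ratio 0.583, log2 change -0.76 ± 0.14 SE, limma adjusted p = 0.0572).

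Magel2, another MAGE gene beside Ndn, measured 9.29, 12.3 and 8.61 CPM in mutants, below the 15.8, 14.5 and 13.3 CPM of controls (limma adjusted p = 0.138). Snrpn, which encodes a spliceosomal protein, measured 26.2, 9.77 and 10.1 CPM in mutants and 17.6, 19.9 and 24.1 CPM in controls. Mutant replicate 5 was the highest of all and the other mutants were the lowest (limma adjusted p = 0.388). Ube3a, a ubiquitin ligase imprinted in neurons, measured 297, 303 and 284 CPM in mutants and 309, 235 and 264 CPM in controls, which overlapped (limma adjusted p = 0.500). Part of the Ube3a exons is shared with genes of the opposite strand, Snhg14 among them, and strand use in counting is not stated. Peg10, a retrotransposon-derived gene needed in the placenta, measured 279, 332 and 266 CPM in mutants, all below the 477, 389 and 383 CPM of controls (log2 change -0.51 ± 0.12 SE, limma adjusted p = 0.0813). Its divergent neighbour Sgce, ε-sarcoglycan, measured 40.3, 31.6 and 30.9 CPM in mutants and 39.0, 31.9 and 28.0 CPM in controls, which overlapped (limma adjusted p = 0.859). Asb4, a maternally expressed ubiquitin ligase adaptor, measured 55.1, 57.0 and 43.4 CPM in mutants and 78.1, 49.9 and 55.7 CPM in controls, also overlapping (limma adjusted p = 0.500).

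In the Peg3 domain all members overlapped. Peg3, a zinc finger protein, measured 1429, 1321 and 1203 CPM in mutant replicates 5, 6 and 7, against 1636, 1162 and 1517 CPM in control replicates 1, 2 and 3 (limma adjusted p = 0.687). Usp29, a ubiquitin protease transcribed from the same start region, measured 45.2, 35.0 and 32.2 CPM in mutants and 41.2, 27.0 and 46.8 CPM in controls (limma adjusted p = 0.982). Zim1, a maternal zinc finger gene, measured 160.2, 116.8 and 109.1 CPM in mutants and 156.8, 105.2 and 126.2 CPM in controls (limma adjusted p = 0.980). The 95% interval of the Zim1 log2 change was -0.41 to 0.39. The signs for Usp29, Zim1 and H19 were turned by another scaling of the libraries, and no direction is given for them.

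Of the remaining loci, Plagl1 and Grb10 separated the groups without passing the threshold. Plagl1, a zinc finger factor known for binding other imprinted loci, measured 487, 519 and 439.6 CPM in mutant replicates 5, 6 and 7, against 710.0, 574 and 634 CPM in control replicates 1, 2 and 3 (log2 change -0.41 ± 0.11 SE, limma adjusted p = 0.104). Grb10, an adaptor that damps insulin and IGF receptor signalling, measured 1024, 983 and 882 CPM in mutants and 1412, 1062 and 1218 CPM in controls (limma adjusted p = 0.174). For both genes all mutants lay below all controls. Gnas, the stimulatory G protein α subunit locus, measured 1177, 938 and 911 CPM in mutants and 1439, 1017 and 1350.0 CPM in controls, which overlapped (limma adjusted p = 0.278).

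Nnat, neuronatin, measured 166, 91.7 and 102.9 CPM in mutants and 189, 136 and 197 CPM in controls (limma adjusted p = 0.195). Mutant replicate 5 was the high one, as it was for Peg13, a non-coding RNA inside Trappc9, at 40.7, 21.8 and 21.5 CPM in mutants and 35.3, 37.7 and 36.5 CPM in controls (limma adjusted p = 0.293). Replicate 5 also had the most neuron marker RNA of the mutants, a summed 611 CPM against 113.6 and 218 CPM in replicates 6 and 7 and 354 to 757 CPM in controls. The part of neuronal RNA in these values was not tested. Zdbf2, a zinc finger gene, measured 122.2, 122.2 and 108.9 CPM in mutants and 216, 122.2 and 164 CPM in controls, with control replicate 2 among the mutants (limma adjusted p = 0.186). The retrogene Nap1l5 lay at 2.92 to 6.76 CPM in mutants and 3.89 to 8.10 CPM in controls (limma adjusted p = 0.487). Impact, a regulator of translation, measured 42.1, 41.5 and 43.1 CPM in mutants and 42.3, 36.7 and 41.7 CPM in controls (limma adjusted p = 0.706). Those groups overlapped, as did the retrogenes that follow. Zrsr1 measured 26.0, 26.4 and 31.0 CPM in mutants and 23.1, 24.3 and 26.0 CPM in controls (limma adjusted p = 0.416). Mcts2 lay at 10.3 to 12.3 CPM in mutants and 7.55 to 10.3 CPM in controls (limma adjusted p = 0.272).

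Counted over the 35 listed genes other than Kcnq1ot1, which chose the list, limma called 0 higher and 1 lower (Dlk1), against 0.196% and 0.283% of all genes and 0.479% in either direction. Before adjustment, at p below 0.05, 1 of the 35 was higher (Airn) and 12 lower, against 13.4% and 8.07% of all genes. Groups that did not overlap were found for 1 higher and 10 lower, against 17.1% and 10.8% of all genes. Negative log2 changes were found for 26 of the 35 (23 with median ratio scaling), and the median was -0.26, beside 0.04 over all genes. Of the 36 measured members, 32 averaged at least 10 CPM. Among all 10829 matched genes of that level, the groups did not overlap for 14.1% on the higher side and 15.3% on the lower. Of those genes 46.7% had a positive log2 change, and their median was -0.02. By the allele listed as expressed, the 22 paternal genes, Kcnq1ot1 among them, had a median log2 change of -0.42 and 16 negative values. The 12 maternal genes had a median of -0.03 and 8 negative values, a difference that was not tested. Those negative values include Usp29 (paternal), H19 and Zim1 (maternal), whose signs turn with median ratio scaling. They also include Kcnq1 (maternal), which is near the floor. Ube3a, imprinted in neurons, is counted as maternal. The 2 genes listed under both alleles, Grb10 and Gnas, had a median of -0.34. Because the list was drawn up for a change in this same comparison, these counts describe its genes and support nothing further.

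**Figure D3:**
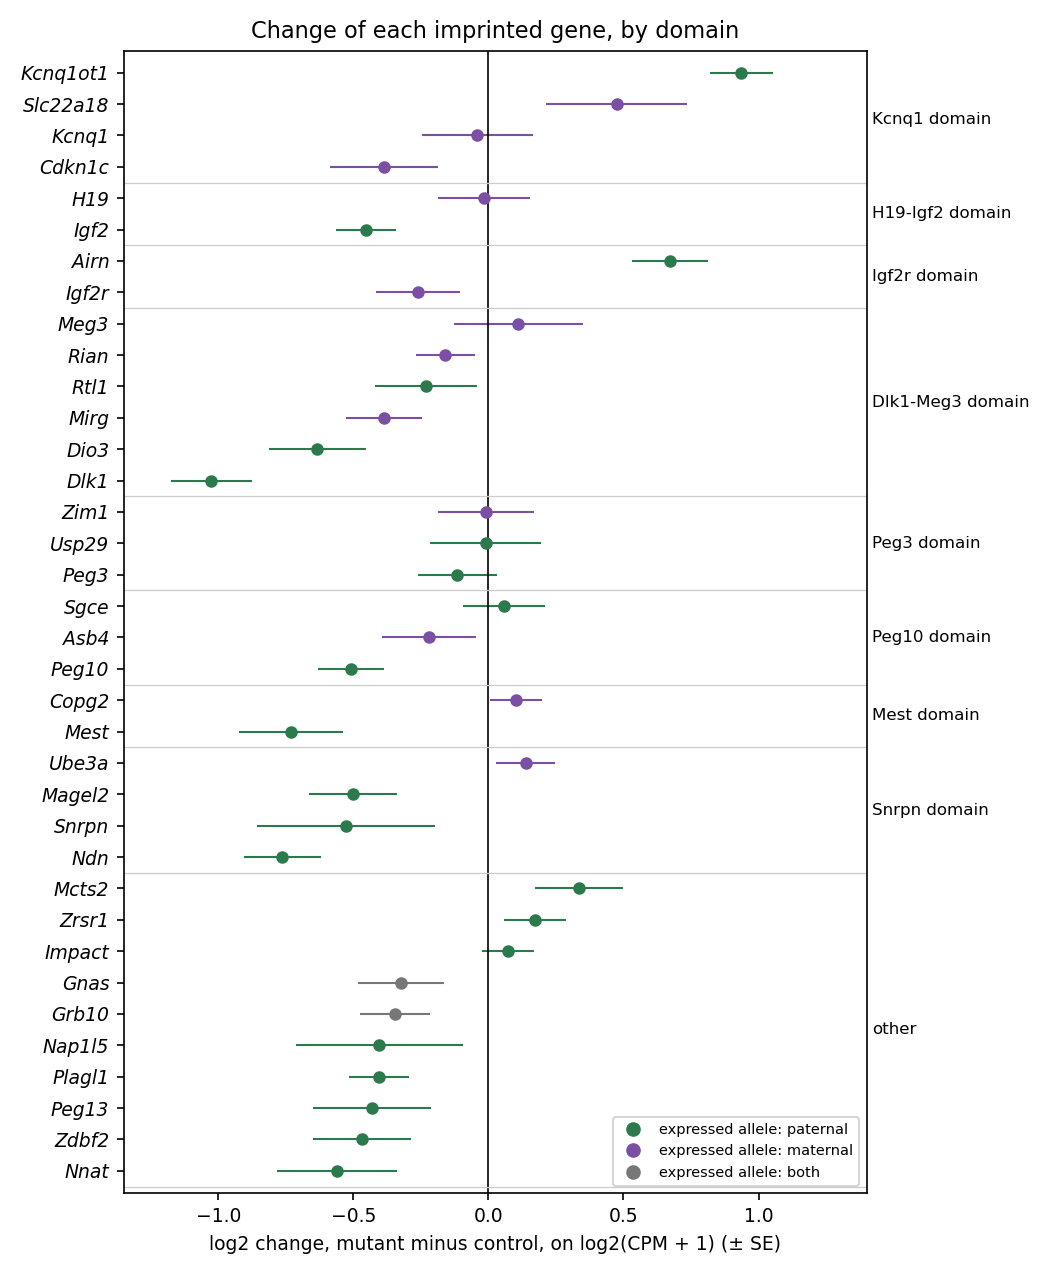
Log2 change, mutant minus control, on the log2(CPM + 1) scale (points, with SE bars) of the 36 measured imprinted genes, grouped by domain and coloured by the allele known to be expressed. Kcnq1ot1 (0.94, chosen for its rise) and Airn (0.67) stand at the right, and Dlk1 (-1.03), Ndn (-0.76) and Mest (-0.73) at the left.

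The libraries were not equal across the list. Among the 32 members averaging at least 10 CPM, control replicate 1 was the highest control for 19 and control replicate 2 the lowest for 16. Mutant replicate 5 was the highest mutant for 18 and replicate 7 the lowest for 21. Summed over the 36 genes the level was 18380 to 19720 CPM in mutants and 19530 to 22420 CPM in controls.

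Markers of several other cell types, but not of all, also differed between the groups. All 10 skeletal muscle markers had negative log2 changes and 5 fell in limma, against 0.283% of all genes called lower, with a median of -1.24. Their summed level was 4614 to 5666 CPM in mutants and 6742 to 14480 CPM in controls. Among them, Myog, a factor of myoblast differentiation, averaged 21.6 ± 1.42 CPM in mutants and 64.1 ± 15.3 CPM in controls (SD, n = 3 each; limma adjusted p = 0.0276). All 6 erythroid markers had mutants below controls with no overlap, against 10.8% of all genes. None passed in limma, and all 6 were below 0.05 before adjustment, against 8.07% of all genes on the lower side. Their summed level was 745 to 1304 CPM in mutants and 1504 to 4512 CPM in controls. All 7 multiciliated epithelium markers had positive log2 changes, 0 of them called in limma (5 below 0.05 before adjustment, against 13.4% of all genes on the higher side), with summed levels of 241 to 315 CPM in mutants and 78.0 to 234 CPM in controls. The 7 chondrocyte, 5 measured osteoblast and 8 epithelial markers were all positive too, with 0 called in limma (2, 1 and 1 below 0.05 before adjustment). Negative log2 changes were found for all 6 neuron markers (median -0.67), all 6 macrophage markers (median -0.23), 5 of 6 Schwann cell markers (median -0.33) and 7 of 8 palatal mesenchyme markers (median -0.37). Of these Osr2 alone was called in limma, and before adjustment 0, 1, 0 and 2 of the lists in that order were lower at p below 0.05. The 6 endothelium markers had 2 positive and 4 negative changes (median -0.05). The 2 measured pituitary markers had 1 of each (median 0.02). In both lists 0 were called in limma and 0 were below 0.05 before adjustment. In whole tissue, fewer cells of a type and less RNA per cell cannot be told apart. The part of these shifts in Dlk1, Igf2 and the other members was not tested.

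Enzymes and factors that keep imprints showed no called change. Of 16 measured genes of imprint maintenance and DNA methylation, 0 passed in limma against 0.479% of all genes (before adjustment, 4 higher and 1 lower at p below 0.05, against 13.4% and 8.07%), and the median log2 change was 0.08. Arid4a and Arid4b, chromatin factors tied to the Snrpn imprint, averaged 94.8 and 252 CPM in mutants and 69.3 and 184 CPM in controls (limma adjusted p = 0.0699 and 0.0708). Dnmt1, which copies DNA methylation, averaged 221 ± 25.1 CPM in mutants and 229.7 ± 9.07 CPM in controls, and Zfp57, which binds methylated control regions, 51.7 ± 6.90 and 47.0 ± 3.86 CPM (limma adjusted p = 0.763 and 0.570). Trim28, the gene lower before adjustment, averaged 215 ± 13.9 CPM in mutants and 263 ± 36.5 CPM in controls (limma adjusted p = 0.196). Dnmt1, Zfp57 and Trim28 were named after their values were seen. Over the 16 genes, groups did not overlap for 6 on the higher side and 2 on the lower, against 17.1% and 10.8% of all genes. Tet2, a methylcytosine oxidase, averaged 149 and 124 CPM, and Smchd1, a chromatin silencer, 214 and 180.2 CPM, in mutants and controls in that order.

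Among 14 Polycomb and G9a genes, whose complexes work with Kcnq1ot1 and Airn in the placenta, 0 passed in limma (before adjustment, 1 higher and 1 lower at p below 0.05, against the same 13.4% and 8.07%) and the median log2 change was 0.03. Ehmt2, which is G9a, averaged 121.9 ± 3.93 CPM in mutants and 143.5 ± 3.64 CPM in controls (limma adjusted p = 0.144). The Polycomb genes Ezh1, Suz12 and Cbx7 averaged 30.8, 113.7 and 4.08 CPM in mutants and 25.2, 98.2 and 2.59 CPM in controls. A further 39 imprinted genes centred on a median log2 change of -0.04, with 18 positive and 21 negative, and 0 passed in limma (before adjustment, 3 higher and 4 lower at p below 0.05, shares near or below those of all genes, 13.4% and 8.07%). Gatm, an enzyme of creatine synthesis, averaged 11.8 ± 2.62 CPM in mutants and 23.8 ± 5.18 CPM in controls (limma adjusted p = 0.0708). Ppp1r9a, an actin-binding scaffold of the Peg10 region, averaged 214.7 ± 5.55 CPM in mutants and 153.6 ± 21.2 CPM in controls (limma adjusted p = 0.0763), and Cobl, near Grb10, 80.7 and 58.5 CPM in that order. Peg12 of the Snrpn region averaged 10.3 CPM in mutants and 15.2 CPM in controls.

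**Figure D4:**
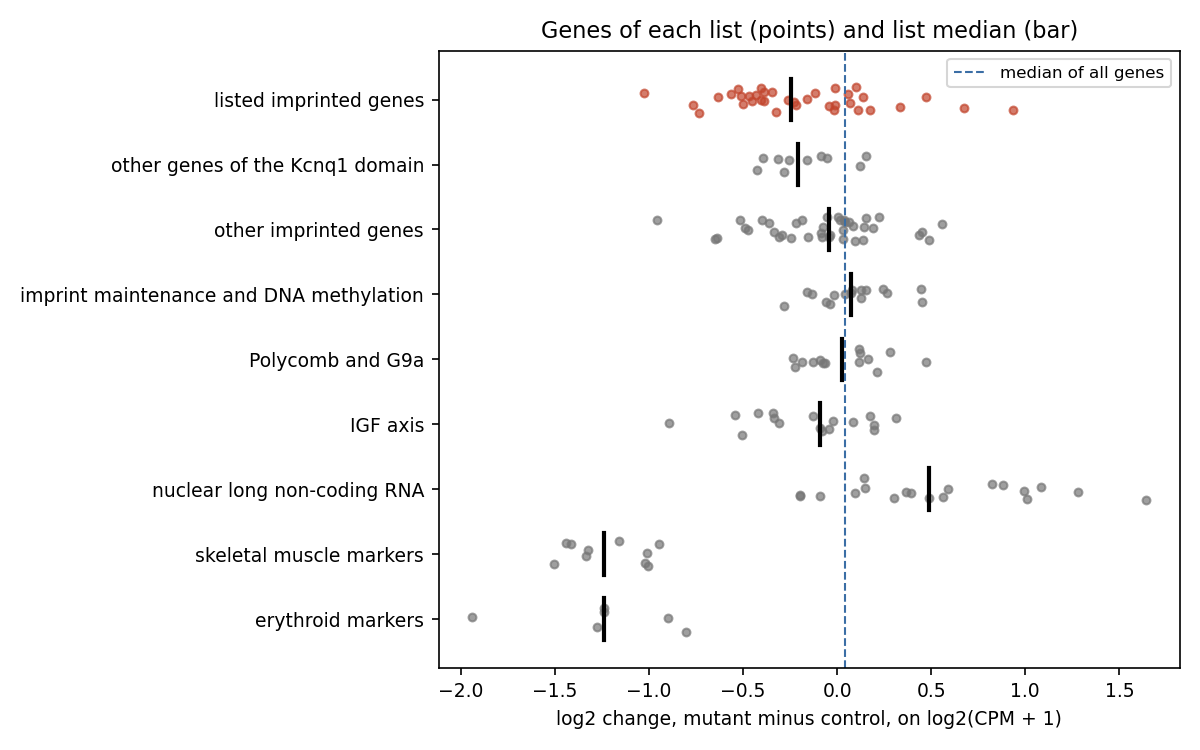
Log2 change, mutant minus control, on the log2(CPM + 1) scale of each gene (points) of the imprinted list and of 8 other lists, with each list's median (bar) and the median of all genes (dashed line, 0.04). The imprinted list has a median of -0.25, the nuclear long non-coding RNAs 0.49 and both the skeletal muscle and the erythroid markers -1.24.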

How the data were processed

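RNA of the soft palate was measured in 3 mutant and 3 control libraries. The submitters' processing notes name STAR and the build mm10. The sources used here state no counting step, strand setting or annotation. The deposited table holds CPM values made by the authors, and its smallest value, a constant 0.0001 under all values, was subtracted. A shorter deposited table of 2432 genes was not used. Samples are rows, matched by name, and 0 rows were left unmatched. Depth was estimated from the step between low values. Only 63.5 to 68.1% of low values fell within 0.02 of a whole number of reads, so counts were not recovered and no count model was fitted. The 2 groups were tested with limma (version 3.58.1, R version 4.3.3) on log2(CPM + 1), with an intensity trend, no filter on low values and Benjamini-Hochberg adjustment over all 21938 genes, at a threshold of 0.05. Changes are on that scale, which understates those of low genes. Positions and exons came from GENCODE vM21 (GRCm38), and sequences from RefSeq. The members and lists were chosen with earlier results of these data known. Every measured member is named, and up to 4 genes with the smallest p of other lists. The test was tested on simulated data. Alternatives changed the pseudocount, filter, scaling, prior variance, threshold and sex term, and left out each library. The sex term was inferred from Xist above 100 CPM and was not a recorded sex.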

Additional observations from a re-analysis of the deposited data

How the results depend on the processing

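The log2 change of Kcnq1ot1 was 0.87 to 1.02 with 1 library left out and 0.89 to 0.96 with another pseudocount, filter, scaling, prior variance or sex term. Counts of calls were less stable, and those of listed genes called higher include Kcnq1ot1, which chose the list, so they support nothing. With no trend in the prior variance, and with sex as a covariate, limma called 0 listed genes higher, 0 lower and 0 genes in all (4516 and 4356 genes at an unadjusted p below 0.05). Robust fitting gave 174 calls in all. At a threshold of 0.1 there were 999 calls among all 21938 genes, 622 higher and 377 lower. Among the listed genes 2 were higher (Airn and Kcnq1ot1) and 5 lower (Igf2, Dlk1, Peg10, Mest and Ndn). With 1 library left out, the listed genes called ranged from 0 to 1 higher and 0 to 2 lower, and all calls from 0 to 452, against 105 (2916 to 5002 at an unadjusted p below 0.05). The added call without control replicate 2 was Cdkn1c. The adjusted p of Dlk1 was 0.0284 to 0.147 over all alternatives, and 0.0764 and 0.0519 with no trend and with sex. The cause of these losses was not tested. Scaling to the median ratio turned the signs of H19, Usp29 and Zim1. Leaving out 1 library turned these signs and those of Kcnq1, Meg3 and Sgce, each in at least 1 fit. Depth limits Kcnq1, Slc22a18 and other genes of a few reads. No paired analysis was possible because the groups share no replicate numbers.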
